A study of Mus musculus with 6 samples.

Results

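The genes described here are 43 enzymes, transporters and regulators of glycolysis, lactate handling and the tricarboxylic acid (TCA) cycle, chosen by name for their place in these pathways, with earlier results of these data known, and found by the gene name printed for each array probe. All 43 were on the array, with 106 of its 56605 transcript probes, and all 43 passed the filter on dim probes, among 20645 of 37074 gene names that did. Glycolysis carries glucose from its transporter through hexokinase, phosphofructokinase, aldolase, glyceraldehyde-3-phosphate dehydrogenase and enolase to pyruvate. Pyruvate is then either reduced to lactate by lactate dehydrogenase and exported, or taken into the mitochondrion, where the pyruvate dehydrogenase complex turns it into acetyl-CoA for the TCA cycle. Osteoclasts, the multinucleated cells that resorb bone, are known for many mitochondria and a large energy demand, since they pump protons onto the bone surface.

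RNA came from bone marrow cells of *Ano1fl/fl* and *Ctsk-Cre;Ano1fl/fl* mice that had been turned into osteoclasts with RANKL, the cytokine that drives osteoclast formation, for 5 days. Both groups carried the *Ano1* gene flanked by loxP sites, and only the *Ctsk-Cre;Ano1fl/fl* mice carried Cre recombinase driven by the cathepsin K gene, so the deletion is limited to cells in which that gene is or has been active. Each group had 3 one-colour arrays. The study's methods take the bone marrow of young mice and grow it first with M-CSF, a macrophage growth factor. By the same methods the osteoclasts for the arrays came from 3 mice of each genotype, the *Ano1fl/fl* mice being littermates of the others. If each array held 1 mouse, which is not stated, the spread between arrays is that between mice with their cultures and hybridisations. Neither the methods nor the labels say which arrays are of 1 litter, and the labels give no age. Values are log2 signals after quantile normalization between the 6 arrays, differences are the *Ctsk-Cre;Ano1fl/fl* mean minus the *Ano1fl/fl* mean, and a gene was called higher or lower at a Benjamini-Hochberg adjusted p under 0.05 in limma over all 20645 genes.

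The targeted gene could not check the labels, since its probe was not well above background on any of the 6 arrays. Between 33480 and 34951 transcript spots of an array were well above background and none was saturated. The cultures differed in markers of cell types. Of 12 osteoclast markers, 11 were higher and 1 was lower in the *Ctsk-Cre;Ano1fl/fl* group, and their summed signal was 157495 to 170314 on the *Ano1fl/fl* arrays and 514103 to 579573 on the *Ctsk-Cre;Ano1fl/fl* arrays. This direction is opposite to the one the study describes, from other assays, for osteoclast markers and osteoclast formation in cells of these genotypes, and the arrays give no check of which is right, so each direction given here is that of the labels alone. Stromal cell and osteoblast markers also differed, with 12 of 15 tested higher and 2 lower, at a summed signal of 23975 to 26179 against 92181 to 135726, and *Bglap*, *Lum* and *Pdgfra* not above background on the *Ano1fl/fl* arrays. All 10 cell cycle genes were lower, from a summed signal of 164671 to 182928 down to 71327 to 95902. Neutrophil markers had 7 of 10 lower and 1 higher (320311 to 337292 against 212421 to 264900), and macrophage markers had 4 of 9 lower and 1 higher (373280 to 390914 against 378318 to 423446). Among 8 erythroid markers, *Alas2*, *Klf1* and *Rhag* were not above background on any array. These lists moved with the groups and their part in the results below was not tested. In bulk RNA, fewer cells of a type and less RNA per cell cannot be told apart.

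More genes of glucose metabolism were higher than lower on the *Ctsk-Cre;Ano1fl/fl* arrays. Of the 43 genes, 23 were higher, 4 were lower and 16 were not called, against 23.4% higher and 29.0% lower among all genes tested. The 23 make up 53.5% of the 43 and the 4 lower genes 9.30%. The lactate dehydrogenase gene *Ldhb* rose 10.67-fold and stood far from all others. *Eno2*, *Pfkfb3* and *Slc2a1* also rose by more than 2-fold, which makes 4 of 43, a share close to the 9.88% among all genes. *Idh1* was the 1 gene to fall by more than 2-fold, as 7.19% of all genes did. The 3 arrays of a group did not overlap with those of the other in 33 of the 43 genes, and in 64.0% of all genes. The median difference of the 43 genes was 0.28 on the log2 scale, with 34 above 0, 8 below 0 and *Aldoa* at 0, while the median over all genes tested was -0.06. Without normalization between arrays 8 of the 43 were higher, 2 of them by more than 2-fold, and the median was 0.02 beside -0.30 over all genes, so that the distance between both medians was 0.32 in place of 0.34. The 8 were *Slc2a1*, *Slc2a6*, *Hk2*, *Pfkp*, *Pfkfb3*, *Eno2*, *Ldhb* and *Idh3b*, and the 4 lower genes were lower there too.

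**Figure D1:**
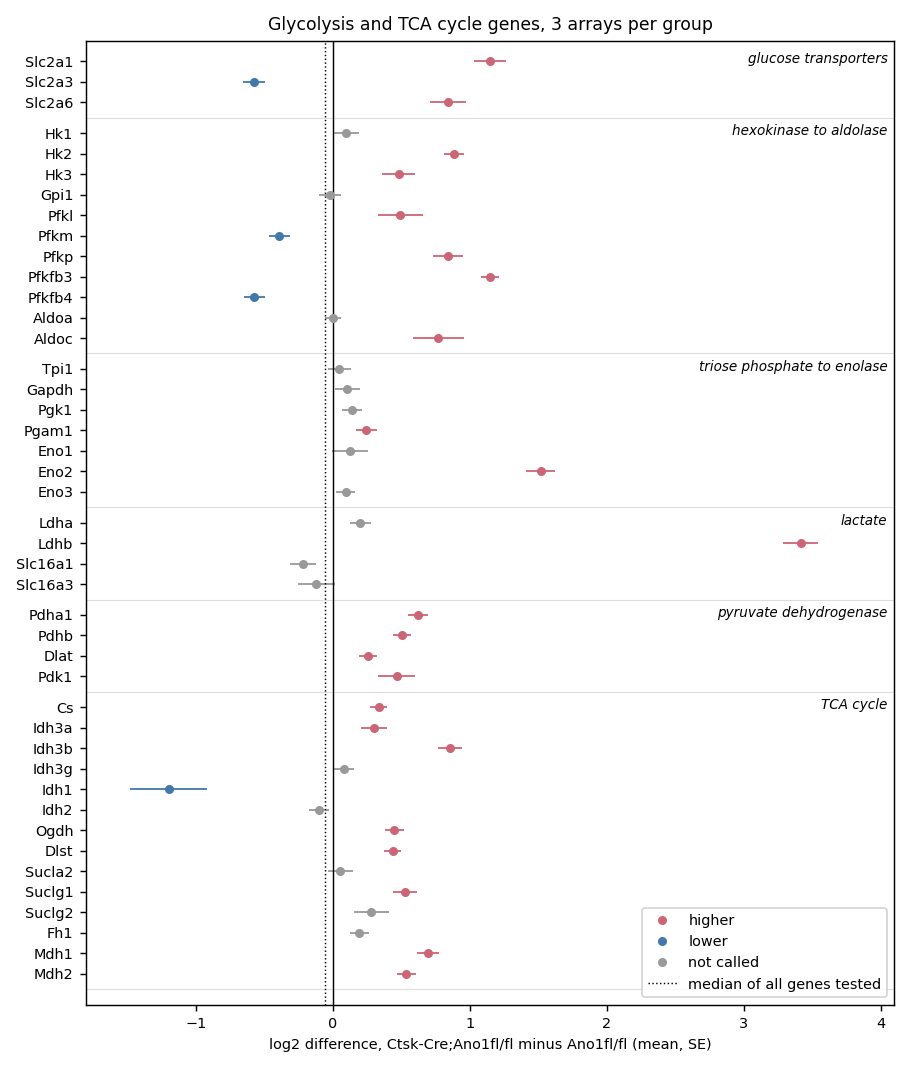
Log2 difference with its limma standard error (horizontal axis, Ctsk-Cre;Ano1fl/fl minus Ano1fl/fl) for each of the 43 genes, grouped by step and coloured by call, with the dotted line at the median of all genes tested. Ldhb at 3.42 lies far to the right, the 4 pyruvate dehydrogenase genes all lie above 0, and Idh1 at -1.20 has the widest error.

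The promoters of the 4 genes that rose by more than 2-fold are shown because many glycolytic genes are known targets of the hypoxia-inducible factors, which bind the core letters ACGTG or GCGTG. The bases are the 250 before the start site in RefSeq (GRCm38.p6), written 5′ to 3′ on the strand of the gene, with matches to either motif on either strand in capitals. *Ldha*, the sister gene of *Ldhb* that was not called, is set beside them.
*Slc2a1*, chr4:119108495-119108744, plus strand: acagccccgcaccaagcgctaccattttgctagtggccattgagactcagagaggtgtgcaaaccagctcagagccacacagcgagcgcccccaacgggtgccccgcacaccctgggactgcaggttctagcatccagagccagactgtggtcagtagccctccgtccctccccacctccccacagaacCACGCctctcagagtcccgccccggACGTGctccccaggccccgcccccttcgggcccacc
*Pfkfb3*, chr2:11553930-11554179, minus strand: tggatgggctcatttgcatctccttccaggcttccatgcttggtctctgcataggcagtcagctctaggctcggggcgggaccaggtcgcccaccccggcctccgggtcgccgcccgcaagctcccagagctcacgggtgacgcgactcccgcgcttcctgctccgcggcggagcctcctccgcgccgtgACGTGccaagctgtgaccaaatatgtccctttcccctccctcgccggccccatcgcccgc
*Eno2*, chr6:124769674-124769923, minus strand: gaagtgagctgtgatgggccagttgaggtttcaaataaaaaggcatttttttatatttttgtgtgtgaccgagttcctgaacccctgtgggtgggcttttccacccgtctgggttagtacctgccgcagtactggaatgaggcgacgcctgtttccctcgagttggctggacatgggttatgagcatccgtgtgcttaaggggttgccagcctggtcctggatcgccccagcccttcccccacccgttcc
*Ldhb*, chr6:142507958-142508207, minus strand: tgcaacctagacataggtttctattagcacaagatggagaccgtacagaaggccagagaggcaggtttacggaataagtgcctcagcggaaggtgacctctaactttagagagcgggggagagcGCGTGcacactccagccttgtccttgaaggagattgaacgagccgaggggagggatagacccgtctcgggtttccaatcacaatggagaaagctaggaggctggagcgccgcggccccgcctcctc
*Ldha*, chr7:46845554-46845803, plus strand: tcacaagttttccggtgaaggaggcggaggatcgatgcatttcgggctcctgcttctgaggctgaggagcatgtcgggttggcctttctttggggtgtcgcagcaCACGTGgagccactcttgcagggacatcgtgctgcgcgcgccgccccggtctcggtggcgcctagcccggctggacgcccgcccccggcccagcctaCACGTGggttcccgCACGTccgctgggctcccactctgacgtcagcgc

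The *Slc2a1* stretch held 1 match to each motif. That of *Pfkfb3* held 1 ACGTG, and another start site of the same gene held 2 ACGTG and 1 GCGTG. *Eno2* had no match in its 250 bases, which says only that these letters are not in this window. *Ldhb* had 1 GCGTG. The *Ldha* stretch shown had 5 matches to ACGTG, of which those in CACGTG count on each strand, and another start site of *Ldha* held no ACGTG and 1 GCGTG. RefSeq promoters were matched for 41 of the 43 genes, with 59 start sites. Over the whole 300 bases from 250 before to 50 after the start, 46 of these 59 (78.0%) held at least 1 match, as did 43.8% of all 32851 promoters of this length. Both motifs contain the pair CG, of which the 59 promoters had a median of 20 and all promoters a median of 7. The share was 80.0% (24 of 30) for the start sites of genes called higher, 85.7% (6 of 7) for those of genes called lower and 72.7% (16 of 22) for those of genes not called. Start sites of 1 gene are not independent and can overlap, and 4 of the 7 were those of *Pfkm*.

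Glucose enters the cell through facilitative transporters of the Slc2a family. *Slc2a1* (GLUT1, the basal transporter of most cells) has its probe at mm9 chr4:118809864-118809923, and whether such a probe lies in a coding exon or an untranslated region was not determined here. Its log2 signal was 13.33, 13.48 and 13.11 in the *Ano1fl/fl* samples against 14.50, 14.51 and 14.34 in the *Ctsk-Cre;Ano1fl/fl* samples. All 3 of the latter were higher, and the difference was 1.15 ± 0.11 (SE, 2.22-fold, limma adjusted p = 4.67e-04). *Slc2a6*, a transporter known from inflammatory macrophages, was higher by 0.84 (SE 0.13, limma adjusted p = 0.00294). *Slc2a3* (GLUT3, a transporter with high affinity for glucose) went the other way, at -0.58 (SE 0.08, limma adjusted p = 0.00187). The groups did not overlap for any of the 3 transporters, as for 64.0% of all genes tested.

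Between hexokinase and aldolase, 6 of 11 genes were higher and 2 were lower, against 23.4% and 29.0% of all genes. The median difference was 0.48. Hexokinases trap glucose in the cell by phosphorylating it. *Hk2*, the inducible form, rose by 0.88 (SE 0.07, limma adjusted p = 2.36e-04) and *Hk3*, a form of myeloid cells, by 0.48, whereas the broadly expressed *Hk1* had a difference of 0.10 that did not pass the test (limma adjusted p = 0.40). Phosphofructokinase commits sugar to glycolysis, and its subunit genes went different ways. The platelet-type *Pfkp* rose by 0.84 (0.42 with the median over its probes), the liver-type *Pfkl* rose by 0.49 with a limma adjusted p of 0.0447, and the muscle-type *Pfkm* fell by 0.39. The call for *Pfkl* was lost under 12 of 18 alternatives, among them the fits without *Ano1fl/fl* array 1 or 3 or *Ctsk-Cre;Ano1fl/fl* array 1 or 2 (0.37 to 0.51, limma adjusted p from 0.0897 to 0.123).

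The same contrast appeared in the bifunctional enzymes that make and break down the allosteric activator of phosphofructokinase. *Pfkfb3*, the isoform whose kinase activity dominates, has its brightest probe at mm9 chr2:11393579-11393638. It read 13.23, 13.23 and 13.14 in the *Ano1fl/fl* samples against 14.40, 14.33 and 14.32 in the *Ctsk-Cre;Ano1fl/fl* samples. The spread within both groups was small against the distance between them, and the difference was 1.15 ± 0.07 (SE, 2.22-fold, limma adjusted p = 6.91e-05). Its other probe gave 1.17. *Pfkfb4* fell by 0.57 (limma adjusted p = 0.00173). *Aldoc*, the brain-type aldolase, rose by 0.77 (limma adjusted p = 0.0144), and *Gpi1*, the isomerase after hexokinase, stood at -0.02. *Aldoa*, the main aldolase, had the brightest probe on each array, so quantile normalization set it to the same value everywhere and its difference of 0 carries no information. With scaling to the 75th percentile instead, its difference was 0.01 (limma adjusted p = 0.92).

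In the later steps of glycolysis, from triose phosphate isomerase to enolase, 2 of 7 genes were higher and none was lower, with a median of 0.13, where 23.4% of all genes were higher. *Gapdh*, glyceraldehyde-3-phosphate dehydrogenase and a common reference gene in expression work, had its brightest probe at mm9 chr6:125111848-125111866. Its log2 signal was 16.76, 17.02 and 16.90 in the *Ano1fl/fl* samples against 17.09, 16.95 and 16.97 in the *Ctsk-Cre;Ano1fl/fl* samples. The groups overlapped, and the difference was 0.11 ± 0.09 (SE, limma adjusted p = 0.36). *Tpi1* (0.05), *Pgk1* (0.14), *Eno1* (0.13) and *Eno3* (0.10) did not pass the test either. *Pgam1*, phosphoglycerate mutase, was higher by 0.25 with a limma adjusted p of 0.0389, a call lost without *Ano1fl/fl* array 1 or 3 or without *Ctsk-Cre;Ano1fl/fl* array 1 or 2 (0.21 to 0.24, limma adjusted p from 0.0909 to 0.112), and its difference was -0.036 without normalization between arrays.

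*Eno2* had the largest difference of these 7 genes. It codes for the gamma enolase best known from neurons, and its 1 probe lies at mm9 chr6:124710388-124710447. The probe read 8.55, 8.58 and 8.60 in the *Ano1fl/fl* samples against 10.31, 10.01 and 9.97 in the *Ctsk-Cre;Ano1fl/fl* samples. The groups lay well apart, with a difference of 1.52 ± 0.10 (SE, 2.86-fold, limma adjusted p = 1.19e-04).

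*Ldhb* had the largest difference of the 43 genes. It codes for the heart-type subunit of lactate dehydrogenase, which is known to favour the conversion of lactate to pyruvate, and its brightest probe lies at mm9 chr6:142438829-142438888. On the log2 scale it read 10.53, 10.18 and 10.34 in the *Ano1fl/fl* samples against 13.64, 13.96 and 13.70 in the *Ctsk-Cre;Ano1fl/fl* samples. All 3 arrays of the latter group were brighter than any of the former. The difference was 3.42 ± 0.13 (SE, limma adjusted p = 1.82e-05), and the other probe of the gene gave 3.75. *Ldha*, the muscle-type subunit that favours lactate production, had a difference of 0.20 without overlap between the groups, and did not pass the test (limma adjusted p = 0.061). The lactate carriers were not called, with *Slc16a1* (MCT1) at -0.22 and *Slc16a3* (MCT4) at -0.12.

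**Figure D2:**
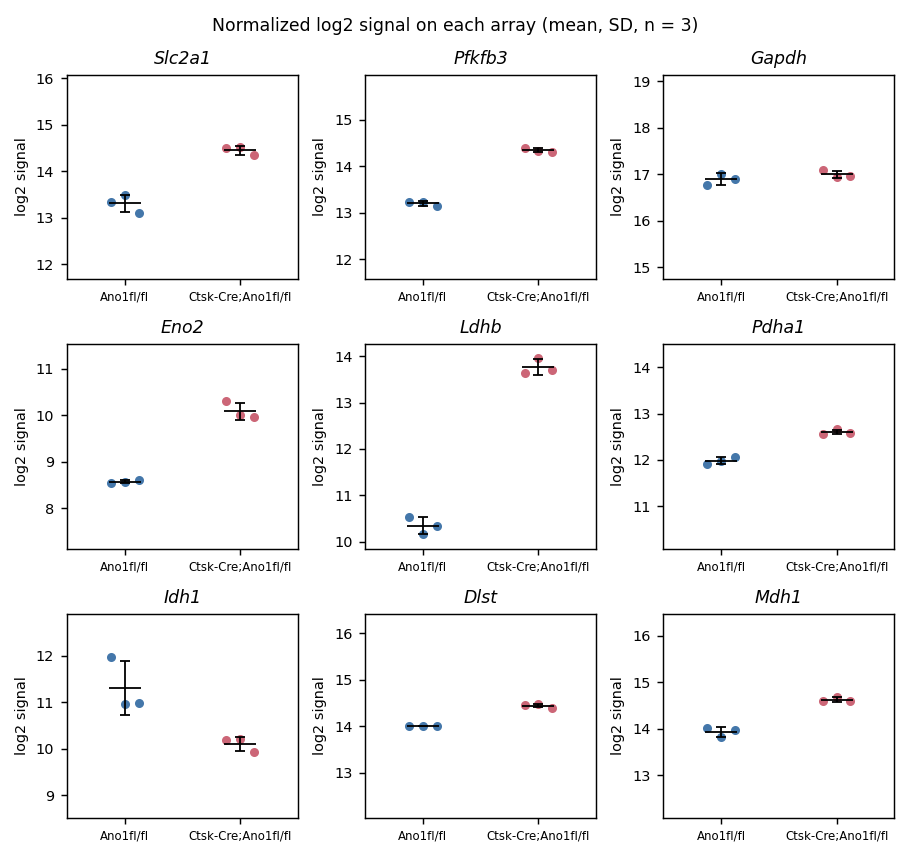
Normalized log2 signal (vertical axis) of 9 genes on each of the 3 arrays per group, with the mean and SD in black; all panels span the same number of log2 units. Ldhb shows the widest gap, Gapdh overlaps, and 1 Ano1fl/fl array stands above the other two for Idh1.

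Because isoenzymes catalyse the same step, 16 pairs of them were compared by the log2 ratio of their signals within each array, which a shift of a whole array cannot change. The groups did not overlap in 10 of the 16 pairs, a share close to the 64.0% of single genes tested whose groups did not overlap, so the count says nothing particular about isoenzymes. With 3 arrays against 3, the exact two-sided permutation test cannot go below p = 0.1, which these 10 pairs reached (Benjamini-Hochberg adjusted p = 0.16 over the 16 pairs), and the values that follow are descriptions. The difference between the group means of the log2 ratio was 3.21 for *Ldhb* against *Ldha*, 9.27-fold, and 1.39 for *Eno2* against *Eno1*. Among transporters it was -1.72 for *Slc2a3* against *Slc2a1*, 3.31-fold, and it was also -1.72 for *Pfkfb4* against *Pfkfb3*, 3.30-fold. It was -0.88 for *Pfkm* against *Pfkl* and 0.78 for *Hk2* against *Hk1*. For *Hk3* against *Hk2* (-0.40) and *Pfkp* against *Pfkl* (0.35) the nearest arrays of the 2 groups almost touched, and the difference of 0.77 for *Aldoc* against *Aldoa* carries the limit given for *Aldoa*. That of *Idh2* against *Idh1* was 1.099, and 0.73 without *Ano1fl/fl* array 1. In the 6 other pairs the groups overlapped, as for *Eno3* against *Eno1* (-0.03, exact permutation p = 0.9) and *Slc16a3* against *Slc16a1* (0.10, exact permutation p = 0.6).

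**Figure D3:**
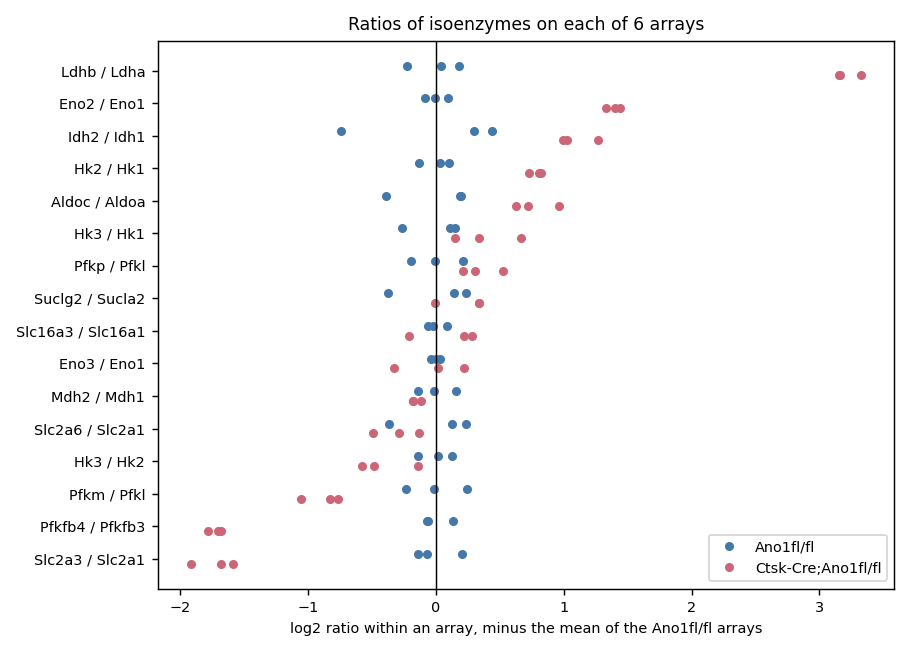
Log2 ratio of 2 isoenzymes within each array, minus the mean ratio of the Ano1fl/fl arrays (horizontal axis), for 16 pairs. Blue points are the 3 Ano1fl/fl arrays and red points the 3 Ctsk-Cre;Ano1fl/fl arrays, which lie apart for Ldhb over Ldha by the widest margin and overlap in 6 pairs.

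All 4 genes of the pyruvate dehydrogenase step were higher, with a median of 0.49, where 23.4% of all genes were higher. *Pdha1*, the catalytic subunit of the complex, had its brightest probe at mm9 chrX:156560573-156560632. Its log2 signal was 11.91, 11.98 and 12.06 in the *Ano1fl/fl* samples against 12.57, 12.66 and 12.58 in the *Ctsk-Cre;Ano1fl/fl* samples. The groups did not overlap, and the difference was 0.62 ± 0.07 (SE, limma adjusted p = 8.71e-04). A dimmer probe of *Pdha1* went the other way, at -0.32, and the call was lost with the mean of both (0.15) and without normalization between arrays (0.35, limma adjusted p = 0.12). Its partner subunit *Pdhb* rose by 0.51 and *Dlat*, the acetyltransferase core, by 0.26. *Pdk1*, a kinase that switches the complex off, rose as well, by 0.47 (limma adjusted p = 0.0289). The call for *Pdk1* was lost with any array left out except *Ano1fl/fl* array 2 (0.34 to 0.51, limma adjusted p from 0.0502 to 0.0826), and over the 18 alternatives its difference ran from 0.02 to 0.57. That for *Dlat* was lost without *Ano1fl/fl* array 2 (0.26, limma adjusted p = 0.0511) or *Ctsk-Cre;Ano1fl/fl* array 2 (0.23, limma adjusted p = 0.0523).

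In the TCA cycle 8 of 14 genes were higher and 1 was lower, against 23.4% and 29.0% of all genes. The median difference was 0.32. *Cs*, citrate synthase, which opens the cycle, rose by 0.34. Of the NAD-dependent isocitrate dehydrogenase, *Idh3b* rose by 0.85 (SE 0.09, limma adjusted p = 5.48e-04) and *Idh3a* by 0.30, while *Idh3g* stood at 0.08 and was not called. The call for *Idh3a* held with *Ano1fl/fl* array 2 left out and was lost without any other array (0.25 to 0.33, limma adjusted p from 0.0619 to 0.103). The 2-oxoglutarate dehydrogenase genes *Ogdh* and *Dlst* rose by 0.45 and 0.44. *Suclg1*, the shared subunit of succinyl-CoA ligase, rose by 0.53, a call lost with the mean or the median over its probes (0.25) and without normalization between arrays (0.25), whereas its partners *Sucla2* (0.06) and *Suclg2* (0.28) and the fumarase gene *Fh1* (0.19) were not called. Both malate dehydrogenases rose, the mitochondrial *Mdh2* by 0.54 and the cytosolic *Mdh1* by 0.70.

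*Mdh1* (brightest probe at mm9 chr11:21457280-21457339) and *Dlst* (mm9 chr12:86474939-86474998) are given by array because their probes disagreed, as described below. The log2 signal of *Mdh1* was 14.01, 13.81 and 13.97 in the *Ano1fl/fl* samples against 14.59, 14.68 and 14.60 in the *Ctsk-Cre;Ano1fl/fl* samples (limma adjusted p = 8.06e-04). That of *Dlst* was 13.99, 14.00 and 14.01 against 14.45, 14.48 and 14.40 (limma adjusted p = 0.00184). Neither gene had any overlap between the groups. Over pyruvate dehydrogenase and the TCA cycle together, 12 of 18 genes were higher and 1 was lower, with a median of 0.39. Over transport, glycolysis and lactate 11 of 25 were higher and 3 lower, with a median of 0.14. The difference between these 2 sets was not tested. Of all genes tested, 23.4% were higher and 29.0% lower.

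*Idh1*, the cytosolic NADP-dependent isocitrate dehydrogenase that supplies reducing power outside the mitochondrion, was the member of the TCA cycle list that fell. Its brightest probe lies at mm9 chr1:65206035-65206094. Its log2 signal was 11.97, 10.97 and 10.98 in the *Ano1fl/fl* samples against 10.19, 10.20 and 9.93 in the *Ctsk-Cre;Ano1fl/fl* samples. The groups did not overlap, but *Ano1fl/fl* array 1 stood above the other two, and the difference of -1.20 had the largest standard error of the 43 genes, 0.28 (2.29-fold lower, limma adjusted p = 0.0136). Without that array the difference was -0.87, no longer 2-fold (limma adjusted p = 0.00346). Its other probe gave -1.21. The mitochondrial form *Idh2* stood at -0.10 (limma adjusted p = 0.29).

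The 43 genes had 96 probes above background, and fitted probe by probe among 31848 tested on the array, 38 of the 96 were higher and 11 were lower, against 21.8% and 30.6% of all probes. Of 29 genes with more than 1 tested probe, 15 had all differences of 1 sign and 3 had probes called in opposite directions. For *Dlst* 2 probes gave 0.44 and 0.45 and 2 others -0.66 and -0.74. With the mean of all probes in place of the brightest, the *Dlst* difference turned to -0.13 (limma adjusted p = 0.18). For *Mdh1* 0.70 and 0.87 stood against -0.46, and for *Pdha1* 0.62 against -0.32. The mean of all probes gave 0.37 for *Mdh1* (limma adjusted p = 0.0115) and 0.15 for *Pdha1*, where the call was lost (limma adjusted p = 0.0985). It also lowered the difference of *Pfkp* to 0.56, of *Ogdh* to 0.27 and of *Suclg1* to 0.25, and ended the call for *Suclg1* (limma adjusted p = 0.0517). The differences of *Pfkl* (0.09) and *Pdk1* (0.06) were lowered further and were no longer called. All 4 probes that fell in these genes were drawn from cDNA clones or Ensembl transcripts and not from RefSeq transcripts, as was 1 of the 2 *Dlst* probes that rose. In *Eno1* and *Sucla2* likewise, an Ensembl-transcript probe fell (-0.79 and -0.81) while the RefSeq probes were not called. Which transcripts these probes read was not tested.

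**Figure D4:**
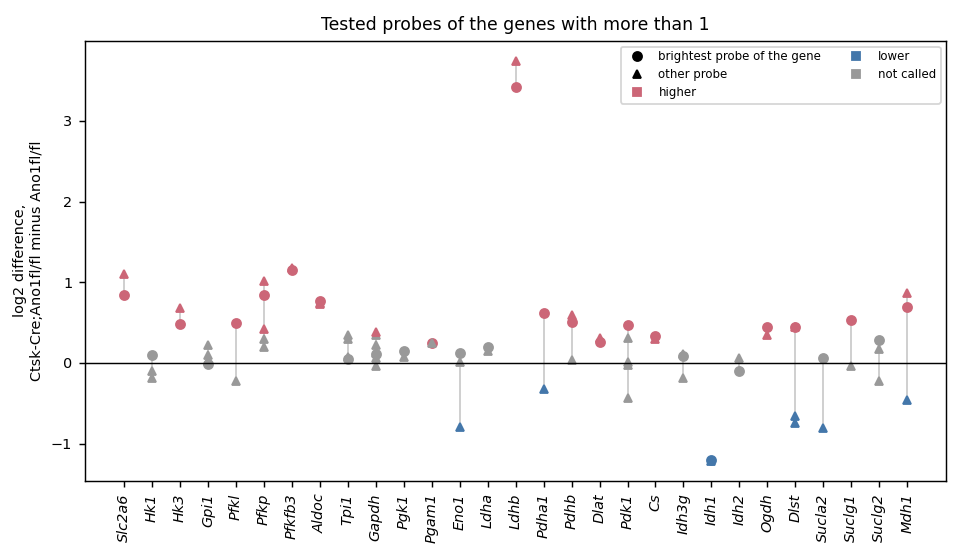
Log2 difference (vertical axis) of every tested probe of the 29 genes with more than 1, circles for the brightest probe and triangles for the others, coloured by the call of the fit over all probes. Probes of Ldhb, Pfkfb3, Idh1 and Aldoc lie close together, while those of Dlst, Mdh1 and Pdha1 fall on both sides of 0.

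Some genes had at least 3 tested probes along the RefSeq transcript of the brightest, a set singled out after its values were seen, and their differences along the transcript took no common course. *Gapdh* had 6. From the 5′ side, at positions 346, 429, 581, 930, 1087 and 1324, their differences were 0.35, 0.39, 0.22, -0.04, 0.11 and 0.05. Only the probe at 429 was called, with a limma adjusted p of 0.0486. For *Tpi1* the probes at positions 539, 634 and 1204 gave 0.35, 0.30 and 0.05, none of them called. Differences were larger towards the 3′ side for *Pdk1*, at -0.03, 0.02, 0.30 and 0.47 from positions 402, 711, 2957 and 3195 with the last called, and for *Suclg2*, at -0.22, 0.17 and 0.28 from positions 318, 854 and 1644 with none called. The 3 probes of *Gpi1* gave 0.10, -0.02 and 0.02, none of them called.

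The neighbouring pathways were counted from lists compiled by hand. Of 29 further genes of pyruvate entry and the TCA cycle that were tested (31 listed), 18 were higher and none was lower, with a median of 0.42. Among all genes tested 23.4% were higher and 29.0% lower. The 18 included *Me1* (malic enzyme, 0.88) and *Gpd2* (the mitochondrial glycerol phosphate dehydrogenase, 1.37). *Pdk4*, another kinase that inhibits pyruvate dehydrogenase, was not above background on the *Ano1fl/fl* arrays and was at least 3.38-fold higher (limma adjusted p = 2.54e-04). Here and below, such a bound sets the brighter group against the dimmest spots that still cleared background on the arrays of the other.

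Of 25 further genes of glycolysis and gluconeogenesis that were tested (32 listed), 7 were higher and 3 were lower, with a median of 0.03, which makes 28.0% higher, a share close to the 23.4% of all genes. *Hkdc1*, a hexokinase-like gene, was not above background on the *Ano1fl/fl* arrays and was at least 6.09-fold higher (limma adjusted p = 6.11e-06), and *Ldhd*, a lactate dehydrogenase for the D form, rose by 1.98. *Fbp1*, the fructose bisphosphatase of gluconeogenesis, fell by 2.17 and was above background on 1 of the *Ctsk-Cre;Ano1fl/fl* arrays. *Ldhc*, the testis-type subunit, was not above background on the *Ctsk-Cre;Ano1fl/fl* arrays and was at least 2.22-fold lower (limma adjusted p = 0.00155).

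The pentose phosphate pathway branches off after hexokinase and yields NADPH and ribose. Its median was -0.23, with no gene higher and 4 of 8 lower, against 23.4% higher and 29.0% lower among all genes. The 4 lower genes were *G6pdx* (-0.49), the entry enzyme, *H6pd* (-0.48), *Rpia* (-0.36) and *Tkt* (-0.31). Of 20 genes of the hypoxia response 13 were higher and 1 was lower, against the same 23.4% and 29.0% of all genes. Their median was 0.68. The largest were *Adm* (adrenomedullin, 4.07), *Ddit4* (2.70), *P4ha2* (a collagen prolyl hydroxylase, 2.34) and *Ndrg1* (2.13). Of the genes for hypoxia-inducible factors in this list, singled out after their values were seen, *Epas1* (HIF-2 alpha) rose by 1.28 (limma adjusted p = 0.00114), while *Hif1a* stood at -0.15 (limma adjusted p = 0.42) and their partner *Arnt* at -0.04, neither of them called. Of 18 regulators of energy metabolism 5 were higher and 3 lower, with a median of 0.0044, and the 27.8% higher was close to the 23.4% of all genes. The coactivator of mitochondrial genes *Ppargc1b* rose by 1.12, the AMP-activated kinase subunit *Prkaa2* by 0.85 and the nuclear receptor *Esrra*, which works with *Ppargc1b*, by 0.41, while *Max* fell by 0.41.

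**Figure D5:**
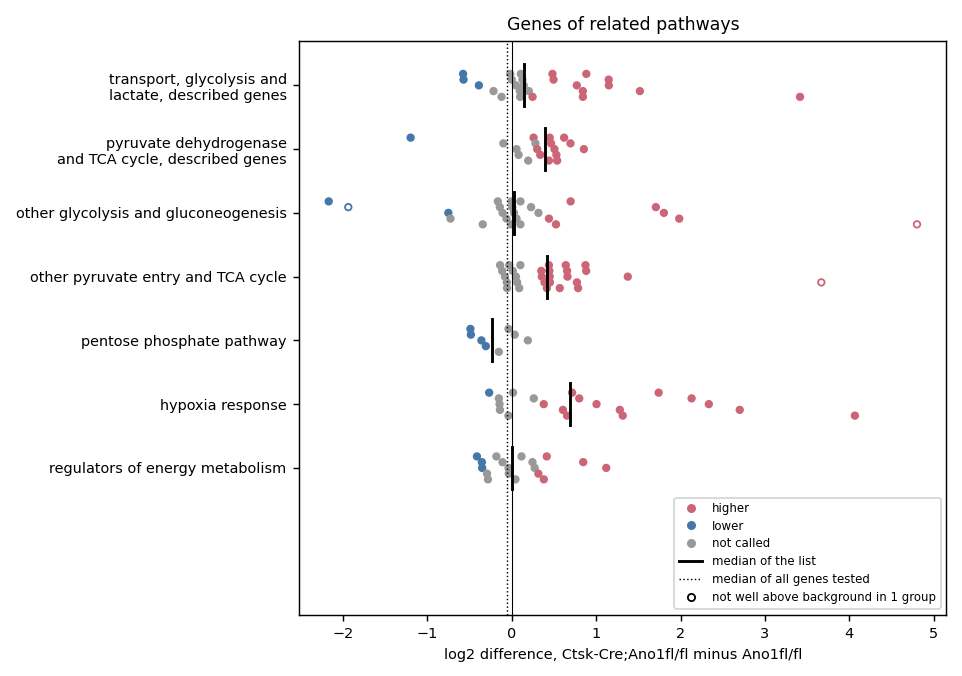
Log2 difference (horizontal axis) of each tested gene in the 43 described genes, divided in 2, and in 5 related lists, coloured by call, with the median of each list as a black bar and the median of all genes as a dotted line. Open circles are fitted differences of genes not well above background in 1 group, for which the text gives bounds; the hypoxia response has the highest median (0.68) and the pentose phosphate pathway the lowest (-0.23).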

How the data were processed

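RNA from osteoclast cultures of 3 *Ano1fl/fl* and 3 *Ctsk-Cre;Ano1fl/fl* samples was hybridised by the authors to Agilent one-colour mouse arrays, 1 slide and 1 scan in all. The deposited scanner files, made per the labels with Agilent Feature Extraction 10.7.1.1, hold spot intensities, of which the processed signal is corrected for background and trends within an array but not between arrays. The series matrix deposited by the authors holds intensities equal to the spot medians. Neither file is on a log2 scale as deposited by the authors, and log2 was taken here.

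Log2 processed signals of 59305 transcript spots were quantile normalized over the 6 arrays, the algorithm the methods name, after 143 to 252 outlier spots an array were set missing, and spots of a probe were averaged. A gene name was represented by its brightest probe and tested if at least 0.5 of the probe's spots were well above background on all 3 arrays of a group. Groups were compared with limma 3.58.1 in R 4.3.3 (package data.table, version 1.17.8), tested on simulated data, with Benjamini-Hochberg adjustment over 20645 genes. Python 3.11.15, pandas 2.3.3 and matplotlib 3.10.9 drew plots and read promoters. The signal on every array is given for genes called at more than 2-fold, genes whose probes were called in opposite directions, and *Gapdh*. Of each related list up to 4 genes with the largest differences among those called without overlap are named, and some genes of the lists are not reported here by name. The 43 genes, lists and rules were chosen with earlier results of these data known. Names of genes and positions on mm9 were taken from the array files. Cross-hybridisation with near-identical copies was not examined. The number of arrays limits the precision. Alternatives were other scalings and background corrections, other filters, other ways to join probes, the methods' t-test, limma settings, a replicate block and leaving out each array.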

Additional observations from a re-analysis of the deposited data

How the results depend on the processing

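Of the 27 called genes, 10 kept their call and direction under all 18 alternatives and 22 with any 1 array left out. The 23 higher genes became 8 without normalization between arrays, of which 2 in place of 4 rose by more than 2-fold, and lay between 17 and 26 otherwise. The lower genes numbered between 3 and 5. The gene lower by more than 2-fold, *Idh1*, was lost (0 genes) with the methods' t-test after Benjamini-Hochberg adjustment (adjusted p = 0.0531), and leaving out each array gave 0 or 1. The methods' t-test called 24 higher and 4 lower at an unadjusted p under 0.05, and 21 and 3 after adjustment. The median of the 43 genes was 0.21 with 75th percentile scaling, 0.025 without normalization, and 0.17 both with the mean of all probes and with the median over probes, and ran from 0.25 to 0.34 with each array left out. Scaling moved the median of all genes by -0.24 at most, without normalization between arrays.

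Deviations of same-numbered arrays from their group means correlated at 0.0044, -0.06 and -0.08, and those of differently numbered arrays at -0.12 to 0.18. With 3 arrays a group such values cannot tell whether the replicate numbers pair the samples. With the replicate number as a block, 18 genes were higher and 4 lower, and 22 of the 27 calls were shared.

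Direction reversed as follows, in genes not called unless stated. With 75th percentile scaling the differences were -0.0017 for *Hk1*, -0.066 for *Tpi1*, -0.0015 for *Eno1*, -0.013 for *Idh3g* and -0.0021 for *Sucla2*. Without normalization they were -0.18 for *Hk1*, -0.25 for *Tpi1*, -0.13 for *Gapdh*, -0.085 for *Pgk1*, -0.036 for *Pgam1* (a called gene), -0.18 for *Eno1*, -0.12 for *Eno3*, -0.078 for *Ldha*, -0.19 for *Idh3g*, -0.18 for *Sucla2* and -0.083 for *Fh1*. With the mean of all probes they were -0.20 for *Hk1*, 0.082 for *Gpi1*, -0.22 for *Eno1*, -0.13 for *Dlst* (a called gene), -0.37 for *Sucla2*, where it passed the test (limma adjusted p = 0.0137), and -0.11 for *Suclg2*. With the median over probes they were -0.10 for *Hk1*, 0.061 for *Gpi1*, -0.11 for *Dlst* and -0.37 for *Sucla2*, which for genes with probes on both sides of 0 follows from averaging them. With each array left out in turn, *Gpi1* ran from -0.074 to 0.026, *Sucla2* from -0.0035 to 0.12, *Tpi1* from -0.012 to 0.095 and *Eno1* from -0.0082 to 0.21. The cause of the other changes was not tested.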
